A study of Mus musculus with 219 samples.

Results

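The 9 genes described here, Ctss, Cx3cr1, P2ry12, Tmem119, Tyrobp, Csf1r, C1qa, C1qb and C1qc, are genes by which microglia, the resident macrophages of the brain, are commonly recognised. They were chosen by symbol from 55487 gene identifiers, and all 9 were found and passed the filter on low counts in both parts of the study, where 18841 genes were tested at ZT6 and 17193 in the atlas. RNA was sequenced from the left prefrontal cortex of mice after removal of ribosomal RNA, and the values are read counts per gene, given here in CPM, counts scaled to the TMM-normalised size of each library. ZT is zeitgeber time, the hours since lights on in a light cycle.

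In 1 part of the study, libraries were made at ZT6 from mice of 4 genotypes, 63 from a calorimetry set and 63 from a running-wheel set. HET/TG mice were Snord116+/-Ctg+/-, HET/WT mice were Snord116+/-Ctg-/-, WT/TG mice were Snord116+/+Ctg+/- and WT/WT mice were Snord116+/+Ctg-/-. Each genotype was held for 22 days on cycles of 11 h light and 11 h dark (11:11) or of 12 h light and 12 h dark (12:12), after a move at about 8 weeks of age to incubators at 22 °C and 7 days of acclimation. The calorimetry set was collected in D:D, and the running-wheel set, with wheels for the last 7 days, in L:D. In D:D, constant darkness, no lights come on, so ZT6 there is the time named in the labels. Males and females were used throughout, with 4 libraries per genotype, cycle, set and sex, and 3 in WT/TG males on 11:11 in calorimetry and on 12:12 with running wheels. Housing, lighting at collection and the series of library names changed together between the sets and cannot be told apart. The prefix of the library names also differed between males and females in both parts of the study, so sex cannot be told apart from it. The labels name no Cre and no cell type to which either allele is restricted, do not give the parent that passed on the deletion, and do not say what the Ctg transgene holds. The other part, called the atlas here, holds 92 libraries of wild-type mice of about 12 weeks, kept in home cages on 12:12 and collected at 8 times from ZT0 to ZT21, with 6 libraries per sex and time and 5 at ZT18 and ZT21. The labels number the libraries of a group as biological replicates and do not say that each came from its own mouse, so the p-values measure the spread between libraries.

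Libraries held 12.7 to 29.9 M counts at ZT6 and 12.996 to 18.4 M counts in the atlas. Snhg14, the transcript that carries the Snord116 copies, was at 33.8 ± 10.7 CPM in HET/TG libraries, 36.7 ± 24.9 CPM in HET/WT libraries and 183.5 ± 20.9 CPM in WT/TG libraries, against 189.8 ± 28.1 CPM in WT/WT libraries (SD, n = 32, 32, 30 and 32). The library labelled HET/WT, running-wheel female on 11:11, replicate 3, went against its label with 167.3 CPM. Of its microglia genes 6 lay within the range of its 3 group mates, among them Ctss at 34.1 CPM and Csf1r at 92.1 CPM. Outside that range were Tyrobp at 4.42 CPM, against 3.52 to 4.02 CPM in the mates, C1qc at 17.3 CPM, against 18.6 to 20.98 CPM, and P2ry12 at 25.6 CPM, against 27.4 to 30.6 CPM. A running-wheel female WT/TG library on 11:11, replicate 1, held 58.5% ribosomal RNA, and a calorimetry male HET/TG library on 11:11, replicate 4, held 33.5% ribosomal and 34.1% mitochondrial RNA, against medians over the ZT6 libraries of 11.2% and 11.8%. In bulk tissue, fewer microglia and less RNA per microglial cell cannot be told apart.

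Microglia enter the brain early in development and renew themselves there. Their survival depends on CSF1R, the receptor encoded by Csf1r, whose ligands are CSF1 and IL-34. They survey the tissue with motile processes that follow ADP through the receptor P2RY12, and they respond through CX3CR1 to the neuronal chemokine CX3CL1. Tyrobp encodes DAP12, the signalling adaptor of TREM2 and other receptors. C1qa, C1qb and C1qc encode the A, B and C chains of C1q, which starts the classical complement pathway and tags synapses for removal. Ctss encodes cathepsin S, a lysosomal protease that trims the invariant chain of MHC class II, and Tmem119 encodes a membrane protein used to tell microglia from other macrophages. Circadian clocks run in microglia as in other brain cells, and the prefrontal cortex is sampled here over the light and dark phases.

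Per kilobase of exon, Ctss and the A and B chains of C1q stood highest, and Tmem119 lowest. In the atlas Ctss averaged 23.9 ± 2.32 CPM per kb, followed by C1qb at 20.6 ± 2.40, C1qa at 18.5 ± 2.28, Csf1r at 11.6 ± 0.797, P2ry12 at 9.36 ± 0.910, C1qc at 9.16 ± 0.880, Tyrobp at 8.32 ± 1.26, Cx3cr1 at 7.72 ± 0.779 and Tmem119 at 5.59 ± 0.654 CPM per kb (SD, n = 92). Neighbours in this order lay within the larger of their SDs for C1qb and C1qa, P2ry12 and C1qc, C1qc and Tyrobp, and Tyrobp and Cx3cr1. At ZT6 the order was the same but for Tyrobp at 10.2 ± 4.84, which stood above C1qc at 9.90 ± 1.64 CPM per kb (SD over all ZT6 libraries). That rank comes from calorimetry males, in which Tyrobp averaged 17.5 and C1qc 11.3 CPM per kb, whereas Tyrobp stood below C1qc in calorimetry females, running-wheel males and running-wheel females, at 9.0005, 8.58 and 5.85 CPM per kb. There the neighbours within the larger of their SDs were Ctss and C1qb, P2ry12 and Tyrobp, Tyrobp and C1qc, and C1qc and Cx3cr1. The C chain was read at a lower level per length than the A and B chains in both parts. The length is that of all annotated exons merged, 1931 bases for C1qc, 1040 for C1qa and 1088 for C1qb.

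In the mm10 build the C1q genes sit side by side on the minus strand of chromosome 4, C1qb (ENSMUSG00000036905) at 136880129 to 136886187, C1qc (ENSMUSG00000036896) at 136889804 to 136893065 and C1qa (ENSMUSG00000036887) at 136895917 to 136898803. Ctss (ENSMUSG00000038642) lies at chr3:95526786-95556403 on the plus strand and P2ry12 (ENSMUSG00000036353) at chr3:59216272-59262871 on the minus strand. Tyrobp (ENSMUSG00000030579) lies at chr7:30413760-30417585 on the plus strand, Tmem119 (ENSMUSG00000054675) at chr5:113793729-113800516 on the minus strand and Cx3cr1 (ENSMUSG00000052336) at chr9:119901616-120069879 on the minus strand. Csf1r (ENSMUSG00000024621) lies on the plus strand of chromosome 18. P2ry12 lies within Med12l on the opposite strand, which averaged 76.0 CPM at ZT6. The annotated span of Cx3cr1 takes in Wdr48, on the opposite strand, and Gorasp1, on the same strand, which averaged 62.2 and 23.05 CPM at ZT6, and Csf1r overlaps Hmgxb3, on the opposite strand, at 59.4 CPM. Whether counting used the strand is not given in the sources used here, so the counts of these 3 genes carry that uncertainty.

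The genes also differed in how tightly libraries of 1 group held together. Csf1r was the steadiest, with a coefficient of variation within groups of 5.92% in the atlas and 8.11% at ZT6. Tyrobp varied most, by 14.1% in the atlas and 19.1% at ZT6. It is the shortest, with 667 bases of exon, and had the fewest counts, so counting error weighs most on it.

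Promoter windows of RefSeq, from 250 bases before to 50 bases after the start in GRCm38.p6, were at hand for 5 of the 9 genes. Those of 3 genes with different patterns below are shown 5′ to 3′ on the gene's strand: Ctss, the gene called between genotypes, Cx3cr1, the gene with the clearest daily rhythm, and P2ry12, called in opposite directions with the light cycle in calorimetry males and females. Capitals mark GGAAGT or its complement ACTTCC, the core bound by PU.1, the myeloid factor encoded by Spi1, and CACGTG, the E-box bound by the clock factors CLOCK and BMAL1.
Ctss, chr3:95526536-95526835, plus strand: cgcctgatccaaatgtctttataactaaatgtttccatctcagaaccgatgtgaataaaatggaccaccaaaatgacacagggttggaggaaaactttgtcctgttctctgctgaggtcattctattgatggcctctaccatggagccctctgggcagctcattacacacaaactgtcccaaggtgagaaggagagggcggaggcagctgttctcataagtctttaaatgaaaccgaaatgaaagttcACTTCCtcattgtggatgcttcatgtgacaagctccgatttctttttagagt
Cx3cr1, chr9:120068247-120068546, minus strand: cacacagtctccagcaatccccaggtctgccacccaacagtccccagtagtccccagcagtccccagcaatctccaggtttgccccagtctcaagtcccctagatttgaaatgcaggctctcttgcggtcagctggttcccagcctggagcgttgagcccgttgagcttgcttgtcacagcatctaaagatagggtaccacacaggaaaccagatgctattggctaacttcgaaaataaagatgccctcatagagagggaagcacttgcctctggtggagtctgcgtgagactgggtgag
P2ry12, chr3:59262936-59263235, minus strand: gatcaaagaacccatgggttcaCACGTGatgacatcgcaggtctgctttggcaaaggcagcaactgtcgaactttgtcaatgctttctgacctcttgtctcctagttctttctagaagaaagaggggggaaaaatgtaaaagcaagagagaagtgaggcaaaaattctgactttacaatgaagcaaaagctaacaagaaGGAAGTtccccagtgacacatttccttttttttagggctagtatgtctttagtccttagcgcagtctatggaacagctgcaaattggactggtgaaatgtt
In the Ctss window ACTTCC begins 2 bases before the start. In the P2ry12 window GGAAGT begins 51 bases and CACGTG 228 bases before the start. The Cx3cr1 window holds none of these letters. GGAAGT, searched on both strands, stands in 4 of the 5 windows (Ctss, P2ry12, C1qb and C1qc) and in 23.8% of 32851 windows of the same length. The longer GAGGAAGT, which contains GGAAGT, stands in 2 of the 5 and in 3.2% of all, and CACGTG in 1 of the 5 and in 7.15% of all. A match of letters shows no binding.

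The question of the atlas is which genes change over the day. Cx3cr1 had the clearest rhythm, high in the early light phase and low in the early dark phase. It averaged 34.5 ± 2.99 CPM at ZT0, 39.2 ± 2.75 at ZT3, 37.6 ± 2.48 at ZT6, 33.9 ± 2.52 at ZT9, 33.9 ± 2.44 at ZT12, 30.4 ± 1.71 at ZT15, 33.3 ± 2.09 at ZT18 and 35.1 ± 2.44 at ZT21 (SD, n = 12, and 10 at ZT18 and ZT21). The lowest, median and highest libraries were 33.5, 38.998 and 43.5 CPM at ZT3 and 26.95, 30.8 and 32.7 CPM at ZT15, so that no library at ZT15 reached the lowest at ZT3. A 24 h cosine fitted over both sexes peaked at ZT3.50 ± 0.93 h with a peak 1.20 times the trough (95% interval 1.15 to 1.25; adjusted p 6.74e-10, edgeR's quasi-likelihood test, Benjamini-Hochberg adjusted across every tested gene).

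Of the 9 genes, 8 passed this test of a 24 h rhythm at an adjusted p of 0.05, beside 41.4% of all genes tested, so rhythmic calls were common in this tissue. The fitted peaks of 7 of the 8 lay between ZT0.963 and ZT3.99, and those of Tmem119 at ZT19.9 ± 1.73 h. Among all genes called rhythmic, 25.8% peaked between ZT0 and ZT6 and 28.1% between ZT18 and ZT24. The swings were small, with a median peak of 1.11 times the trough over the 9 genes, against 1.10 over all genes tested.

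Of the receptors and adaptors, Tyrobp peaked at ZT3.65 ± 1.84 h, 1.19 times its trough (1.09 to 1.29; adjusted p 0.00183). P2ry12, the ADP receptor, peaked at ZT3.36 ± 2.05 h, 1.10 times its trough (1.05 to 1.16; adjusted p 0.00607). Csf1r peaked at ZT0.963 ± 1.75 h, 1.08 times its trough (1.04 to 1.12; adjusted p 0.000822, all by edgeR's quasi-likelihood test). The chains of C1q peaked in the same part of the day, C1qa at ZT1.12 ± 2.08 h, C1qb at ZT3.99 ± 2.24 h and C1qc at ZT2.89 ± 2.43 h, with peaks 1.13, 1.11 and 1.09 times the trough and edgeR adjusted p of 0.00601, 0.0145 and 0.0243. The 95% intervals of these peak times overlap one another and that of Cx3cr1.

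C1qb averaged 24.1 ± 2.79 CPM at ZT3 and 20.6 ± 1.76 CPM at ZT15 (SD, n = 12 each). C1qa averaged 20.9 ± 2.35 CPM at ZT3 and 17.3 ± 1.74 CPM at ZT15, and 1 library at ZT12 stood at 29.2 CPM. C1qc averaged 19.02 ± 1.92 CPM at ZT3 and 16.6 ± 1.63 CPM at ZT15. For all 3 chains, then, ZT15 held the lowest mean of the 8 times and ZT3 the highest.

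Tmem119 had 2 high points in the day, and its fitted peak lay apart from the others. Its means were 12.6 ± 0.663 CPM at ZT0, 14.04 ± 1.40 at ZT3, 12.0 ± 0.847 at ZT6, 11.5 ± 1.82 at ZT9, 12.4 ± 1.20 at ZT12, 13.97 ± 1.10 at ZT15, 13.8 ± 1.71 at ZT18 and 13.3 ± 0.788 at ZT21 (SD, n = 12, and 10 at ZT18 and ZT21). Like Cx3cr1 and the chains of C1q it had its highest mean at ZT3, and that at ZT15 was as high, so a single 24 h wave describes Tmem119 only in part. Its peak was 1.15 times its trough (1.08 to 1.22; adjusted p 0.00170, edgeR). In males the highest mean was 14.5 CPM at ZT3, and in females 15.2 CPM at ZT18.

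Ctss did not pass the test, with a peak 1.06 times the trough (1.00 to 1.11; edgeR adjusted p 0.225). Its means lay between 31.04 ± 2.38 CPM at ZT9 and 33.8 ± 3.37 CPM at ZT3. Where the sexes were fitted apart, 3 of the 9 genes were called rhythmic in females, beside 19.2% of all genes, and 4 in males, beside 25.9%. None of the 9 differed in 24 h rhythm between the sexes by edgeR or DESeq2, beside 0.0756% of all genes, and 0 had an unadjusted p under 0.05 by edgeR, beside 7.76%. With time as 8 levels, edgeR gave Ctss, Tmem119 and C1qc an unadjusted p of 0.0232, 0.0446 and 0.0469. With a 12 h harmonic added it gave Tmem119 0.0243. The rest lay above 0.05 in both fits, and no gene passed after adjustment.

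**Figure D1:**
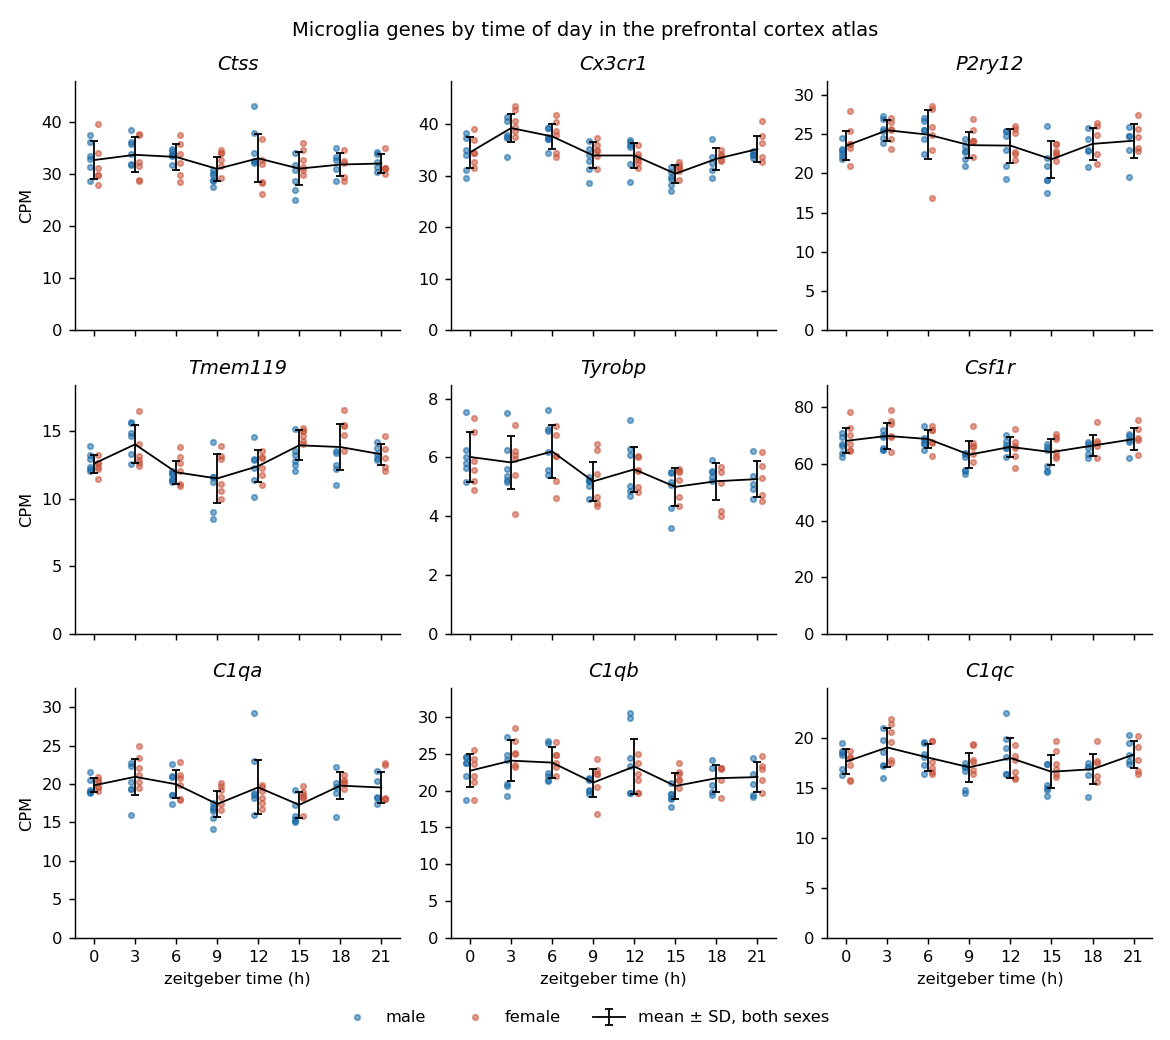
CPM of each of the 9 genes (y axes) by zeitgeber time in hours (x axes) in the atlas. Points are male and female libraries, and the black line joins the mean ± SD of each time over both sexes. Cx3cr1 fell to 30.4 CPM at ZT15, against 39.2 CPM at ZT3, and Tmem119 averaged 13.97 CPM at ZT15, against 14.04 CPM at ZT3.

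Of the genes that work with these 9 some were called rhythmic, beside 41.4% of all genes. Cx3cl1, the ligand of Cx3cr1, peaked at ZT20.9 ± 1.01 h, 1.19 times its trough (1.14 to 1.25; edgeR adjusted p 2.49e-08), with no overlap between the intervals of ligand and receptor peaks. Gnai2, a G protein subunit through which P2RY12 and CX3CR1 signal, peaked at ZT2.50 ± 1.43 h. Of a list of 20 other homeostatic microglial genes 11 were called, among them Laptm5 at ZT3.59 ± 1.56 h. Of 14 myeloid transcription factors 3 were called, among them Mef2c, peaking at ZT12.6 ± 1.32 h. Of the measured members of the other lists, 6 of 18 complement genes, 7 of 13 ligands and partners, 12 of 21 lysosomal genes, 9 of 15 genes of disease-associated microglia, 7 of 17 inflammatory genes and 5 of 15 interferon genes were called. Lpl, a lipase of disease-associated microglia that other cells express too, peaked at ZT2.38 ± 1.60 h, 1.47 times its trough. The inhibitor of NF-kB Nfkbia peaked at ZT13.7 ± 1.21 h and the interferon-induced Ifit3 at ZT13.8 ± 1.27 h, 1.30 and 1.42 times their troughs. Of the markers of other cells 7 of 10 astrocyte, 7 of 10 oligodendrocyte, 9 of 12 endothelial and mural and 4 of 10 neuronal markers were called, beside the same 41.4% of all genes. Their part in the rhythm of the microglia genes was not tested.

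The sum of the 9 genes had its highest median at ZT3, 252.2 CPM, and its lowest at ZT15, 222.6 CPM. The sum of the border macrophage markers had medians of 23.5 to 27.6 CPM over the 8 times.

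The genotype comparison asks what the Snord116 deletion does and whether the Ctg transgene changes it. Ctss rose in HET/WT mice and was the only one of the 9 genes called against WT/WT mice. Its lowest, median and highest libraries were 28.2, 36.2 and 49.4 CPM in HET/TG mice, 29.5, 41.1 and 57.4 CPM in HET/WT mice and 27.9, 37.1 and 51.2 CPM in WT/TG mice, against 27.5, 34.9 and 54.7 CPM in WT/WT mice. The means were 36.8 ± 5.47, 41.04 ± 6.89 and 37.3 ± 5.05 CPM, against 36.8 ± 6.25 CPM (SD, n = 32, 32, 30 and 32). The HET/WT mean alone stood apart, while the ranges of all 4 genotypes overlapped. The log2 difference of HET/WT from WT/WT was 0.16 ± 0.04 (SE; adjusted p 0.0397, edgeR's quasi-likelihood test), and 0.0425% of all genes were called in this comparison. At an unadjusted p under 0.05 stood 4 of the 9 genes, beside 6.4% of all genes.

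Within each of the 8 groups of set, sex and cycle the HET/WT mean of Ctss was above the WT/WT mean, by 0.03 to 0.34 on the log2 scale. The widest gap was in calorimetry females on 11:11, where HET/WT libraries had 42.3, 45.9, 39.2 and 40.7 CPM, against 32.7, 35.4, 34.97 and 30.1 CPM in WT/WT libraries, with no overlap. Running-wheel males on 12:12 had 46.2, 41.5, 46.7 and 33.5 CPM in HET/WT libraries, against 32.2, 33.9, 33.7 and 38.3 CPM in WT/WT libraries, which overlap. Running-wheel females on 12:12 had 33.9, 29.5, 34.6 and 33.3 CPM in HET/WT libraries, against 31.4, 34.8, 27.5 and 31.4 CPM in WT/WT libraries, which overlap nearly whole.

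**Figure D2:**
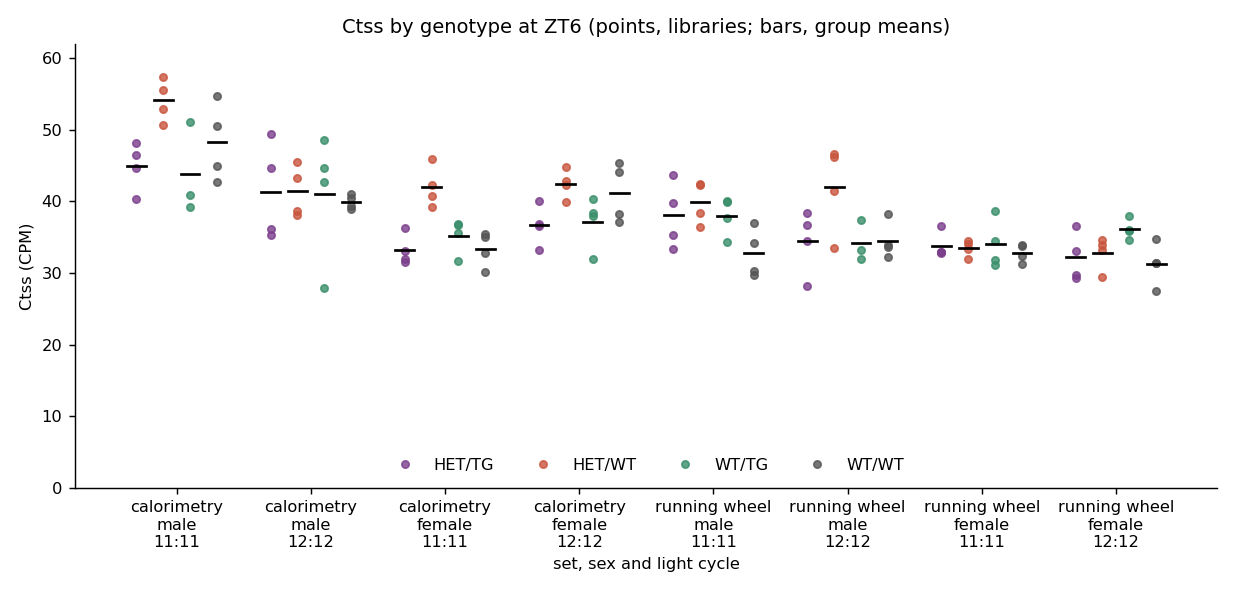
Ctss in CPM (y axis) in each ZT6 library, by set, sex and light cycle, with HET/TG, HET/WT, WT/TG and WT/WT side by side (x axis). Points are libraries and bars are means; the HET/WT mean is above the WT/WT mean in 8 of 8 groups.

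The call on Ctss depends on the full set of libraries and on the model. With all libraries kept, it was lost when the slope of log2 CPM on log2 gene length, described below, was a covariate. Without the library that went against its label the edgeR adjusted p was 0.0590, and without replicate 1, 2, 3 or 4 of every group it was 0.209, 0.735, 0.473 and 0.0518, with log2 differences of 0.15 to 0.16. In calorimetry mice alone and in running-wheel mice alone the difference was 0.15 and 0.17, with edgeR adjusted p of 1.00 and 0.316.

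The other 8 genes did not pass the test between HET/WT and WT/WT mice. C1qa differed by 0.15 ± 0.05 on the log2 scale (edgeR adjusted p 0.621), and its HET/WT mean was also higher in 8 of 8 groups. C1qb, C1qc and Tmem119 differed by 0.09, 0.08 and 0.09, and Cx3cr1 by 0.00. The median over the 9 genes was 0.08, against 0.00 over all genes tested. No gene of the 8 lists of related genes was called. Ctsd, the lysosomal cathepsin D, was nearest at 0.12 ± 0.03 (edgeR adjusted p 0.118), before Fcrls, a homeostatic microglial gene, at 0.15 ± 0.04 (0.252).

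With the transgene added to the deletion the microglia genes lay near WT/WT. None of the 9 was called in HET/TG against WT/WT mice by edgeR or DESeq2, beside 0.0478% of all genes, and 0 had an unadjusted p under 0.05 by edgeR, beside 6.07%. Ctss differed by 0.01, and the median of the 9 was -0.01. Against HET/WT mice, HET/TG mice had lower values for 8 of the 9 genes, with a median of -0.09 and a Ctss difference of -0.15 ± 0.03 on the log2 scale. That comparison had no call among the 9 by edgeR or DESeq2 (Ctss adjusted p 0.206), beside 0.0106% of all genes, with 6 at unadjusted p under 0.05, beside 7%. HET/WT libraries enter both this comparison and that with WT/WT, so the 2 differences share them.

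The transgene alone and the wider genotype questions gave no call among the 9 genes by edgeR, nor by DESeq2 where it gave an adjusted p. WT/TG against WT/WT mice had 0 at unadjusted p under 0.05, beside 4.26% of all genes so and 0.0159% called. Deletion carriers against non-carriers had 1 at unadjusted p under 0.05, beside 10.9% of all genes so and 0.218% called. Of the related lists 2 genes were called there, Olfml3, which encodes a secreted protein of homeostatic microglia, at 0.14 ± 0.03 (edgeR adjusted p 0.0220) and Ank at -0.06 ± 0.01 (0.0465). The interaction of deletion and transgene had 4 of the 9 at unadjusted p under 0.05, beside 5.6% of all genes so and 0% called, with Ctss at -0.18 and Tmem119 at -0.20 on the log2 scale. Nor did the HET/WT effect differ by cycle, sex or set in any of the 9, with 2, 0 and 0 at unadjusted p under 0.05, beside 7.06%, 5.58% and 4.31% of all genes so and 0% called in each.

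The light-cycle comparison asks what entrainment to the shorter 11:11 cycle does. Over both sets and sexes Tyrobp, the DAP12 adaptor, was the only one of the 9 genes called. Its lowest, median and highest libraries were 2.28, 5.45 and 14.2 CPM on 11:11, against 3.25, 6.09 and 18.7 CPM on 12:12, so the ranges overlap widely. The difference was -0.20 ± 0.04 on the log2 scale (edgeR adjusted p 0.000187), beside 5.15% of all genes called lower and 12.6% called in either direction. Among related genes Csf1, a ligand of CSF1R, rose by 0.09 ± 0.03 (edgeR adjusted p 0.0153) and Sall1, a transcription factor of microglia, by 0.10 ± 0.03 (0.0145), while Gpr34 fell by 0.13 on the log2 scale (0.0427) and Lpl fell by 0.25 (0.00772).

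The pooled values hide opposite movements of the sexes in the calorimetry set. In calorimetry males on 11:11, 5 genes rose (Ctss, P2ry12, Tmem119, Csf1r and C1qc) and Tyrobp fell, beside 7.18% of all genes called higher and 6.33% called lower. In calorimetry females on 11:11, 4 genes fell (Cx3cr1, P2ry12, Tyrobp and C1qb), beside 5.62% of all genes called lower. The median over the 9 genes was 0.20 in males and -0.16 in females, against 0.00 and -0.01 over all genes tested. These comparisons within a set and sex were chosen after the data were seen.

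In calorimetry males P2ry12 had its lowest, median and highest libraries at 23.8, 32.97 and 75.8 CPM on 11:11, against 18.8, 29.3 and 33.9 CPM on 12:12 (n = 15 and 16), a log2 difference of 0.30 ± 0.07 (edgeR adjusted p 0.00297). The 75.8 CPM came from the HET/TG library rich in mitochondrial RNA; without it the difference was 0.21 (adjusted p 0.0156), and without replicate 4 of every group 0.21 (0.0546). The calls on the other genes held without that library, in which Csf1r stood at 47.4 CPM, the lowest of these males on 11:11.

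Csf1r had 47.4, 85.9 and 98.7 CPM as its lowest, median and highest libraries on 11:11, against 46.9, 73.7 and 81.9 CPM on 12:12, a difference of 0.24 ± 0.05 (edgeR adjusted p 0.000101). Ctss had 39.3, 48.2 and 57.4 CPM on 11:11, against 27.9, 40.8 and 49.4 CPM on 12:12, a difference of 0.22 ± 0.05 (0.00124). Most 11:11 libraries lay above the 12:12 median for both genes, and the ranges overlap. Tmem119 had 11.7, 20.5 and 23.8 CPM on 11:11, against 12.2, 16.3 and 20.7 CPM on 12:12, a difference of 0.27 ± 0.06 (edgeR adjusted p 0.00210). C1qc averaged 23.4 ± 3.51 CPM on 11:11, against 20.5 ± 4.02 CPM on 12:12, a difference of 0.20 ± 0.07 (0.0326). The C1qc call was lost without any 1 of 9 libraries, replicates 1 and 2 of HET/TG, 1 of HET/WT, 2 of WT/TG and 1 of WT/WT on 11:11 and replicates 2 of HET/TG, 3 and 4 of WT/TG and 2 of WT/WT on 12:12 (edgeR adjusted p 0.0510 to 0.0852). With replicate 1 of every group left out, the Ctss and Tmem119 calls were lost too (0.0797 and 0.110), and with replicate 2 that of Tmem119 (0.0843). Ctss, P2ry12, Tmem119 and C1qc were higher on 11:11 in 4 of 4 genotypes. Cx3cr1, C1qa and C1qb did not pass the test in these males.

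Tyrobp was the exception, at 8.14, 10.5 and 14.2 CPM on 11:11, against 7.65, 12.3 and 18.7 CPM on 12:12, a difference of -0.26 ± 0.08 (edgeR adjusted p 0.0114). Without the WT/TG library on 12:12 that held the highest value it was -0.20 (adjusted p 0.0610). Markers of blood cells, in which Tyrobp is also expressed, had a median sum of 150.3 CPM in calorimetry males on 11:11, against 221.7 CPM on 12:12. Of the 8 measured markers 3 were lower, beside 6.33% of all genes called lower. The part of blood cells in the difference was not tested.

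In calorimetry females Cx3cr1 had its lowest, median and highest libraries at 35.2, 40.2 and 47.3 CPM on 11:11, against 41.2, 46.6 and 53.9 CPM on 12:12, a difference of -0.21 ± 0.05 (edgeR adjusted p 0.00323, n = 16 each). P2ry12 had 26.2, 29.05 and 37.2 CPM on 11:11, against 29.3, 33.7 and 40.8 CPM on 12:12, a difference of -0.21 ± 0.07 (0.0443). Both ranges overlap, although most 11:11 libraries lay below the lowest 12:12 library. C1qb had 18.5, 22.9 and 26.3 CPM on 11:11, against 22.2, 25.7 and 31.7 CPM on 12:12, a difference of -0.18 ± 0.05 (edgeR adjusted p 0.0172). Tyrobp had 3.79, 5.50 and 6.98 CPM on 11:11, against 5.29, 6.38 and 8.41 CPM on 12:12, a difference of -0.27 ± 0.08 (0.0135). All of the 4 were lower in 4 of 4 genotypes. Tmem119 averaged 15.9 ± 1.74 CPM on 11:11, against 15.9 ± 1.65 CPM on 12:12, and Ctss differed by -0.14 (edgeR adjusted p 0.0528). With replicate 2 of every group left out, none of the 4 calls held (adjusted p 0.0786 to 0.419).

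The test of the sex difference itself called 6 of the 9 genes in the calorimetry set, beside 2.28% of all genes called in that direction and 3.91% in either. The 11:11 effect in males minus that in females was 0.51 ± 0.10 for P2ry12 (edgeR adjusted p 0.00140), 0.36 ± 0.07 for Ctss (0.000878), 0.30 ± 0.08 for Cx3cr1 (0.0133), 0.27 ± 0.06 for Csf1r (0.00714), 0.25 ± 0.08 for C1qb (0.0430) and 0.30 ± 0.09 for C1qc (0.0476). Tyrobp, lower on 11:11 in both sexes, had 0.01 ± 0.11 (0.989). Without the library rich in mitochondrial RNA the P2ry12 value was 0.42. With replicate 1 or 2 of every group left out, or with the calorimetry set fitted alone, 2 genes were called, Ctss and P2ry12. The calls on C1qb and C1qc were also lost without single calorimetry male libraries (adjusted p of up to 0.0773 and 0.0851).

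**Figure D3:**
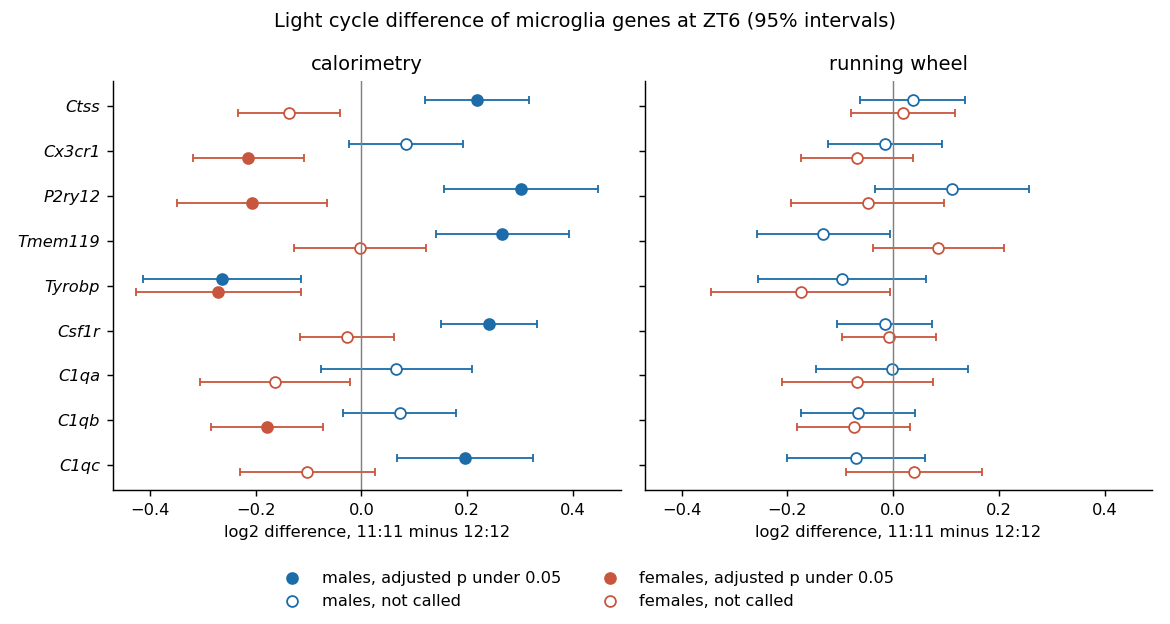
Log2 difference of 11:11 from 12:12 (x axis) for each of the 9 genes (y axis) in the calorimetry set and in the running-wheel set, with 95% intervals; males and females are drawn apart and filled points have an adjusted p under 0.05. In the calorimetry set 5 genes rose in males and 4 fell in females, and no running-wheel point is filled.

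In the running-wheel set none of the 9 genes was called. Females had 1 of the 9 at unadjusted p under 0.05 and males 1, by edgeR, beside 10% and 3.98% of all genes so and 0.276% and 0% called. Tyrobp differed by -0.17 in females, and in males Tmem119 differed by -0.13 and P2ry12 by 0.11. The difference between the sexes in the effect of 11:11 gave no call in this set (1 of the 9 at unadjusted p under 0.05, beside 7.65% of all genes so and 0% called), and neither did the test of whether it differed between the sets, with 7 of the 9 genes at unadjusted p under 0.05, beside 5.61% of all genes so and 0% called. The effect of 11:11 over both sexes differed between the sets in none of the 9 genes (2 at unadjusted p under 0.05, beside 18.9% of all genes so; 0 by DESeq2), beside 5.32% of all genes called. The pattern in calorimetry mice is therefore not shown to be particular to them.

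Some other genes of microglia were called in the same directions, and most were not. Of the 20 other homeostatic genes 5 rose and 0 fell in calorimetry males on 11:11, beside 7.18% of all genes called higher, among them P2ry13 by 0.37 ± 0.08 on the log2 scale (edgeR adjusted p 0.000514). In calorimetry females 6 fell and 0 rose, beside 5.62% of all genes called lower, among them Gpr34, which fell by 0.38 (0.00196), and Fcrls, which fell by 0.22 (0.00345). The ligand gene Csf1 rose by 0.21 ± 0.06 in males (edgeR adjusted p 0.00595), as did Irf5, a transcription factor of myeloid cells, by 0.44 ± 0.12 (0.00673). In females Cd9 and Fabp5, genes of disease-associated microglia that other cells also use, fell by 0.29 and 0.28 on the log2 scale (0.000333 and 0.000326). The receptor gene Tgfbr1 rose by 0.20 in males and fell by 0.19 in females (0.00663 and 0.00679).

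Markers of other glia were called too. In calorimetry males 6 of 10 astrocyte markers, 5 of 10 oligodendrocyte markers and 5 of 7 markers of oligodendrocyte precursors rose on 11:11, beside 7.18% of all genes, with medians of 0.20, 0.20 and 0.25 on the log2 scale. In calorimetry females 3 of 10 astrocyte and 3 of 12 endothelial and mural markers fell, beside 5.62% of all genes, with medians of -0.10 and -0.15. In the test of the sex difference 6 of 10 astrocyte and 5 of 10 oligodendrocyte markers were called, beside 3.91% of all genes. The part of these cells in the result was not tested.

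RNA quality was followed by the slope of a library's log2 CPM on log2 gene length, relative to the mean library. It averaged -0.063 ± 0.038 in calorimetry males on 11:11, against -0.079 ± 0.015 on 12:12, and 0.006 ± 0.011 in calorimetry females on 11:11, against -0.022 ± 0.019 on 12:12 (SD, n = 15, 16, 16 and 16). With this slope as a covariate none of the 4 calls in females held, while in males 5 of the 6 did, Tyrobp being lost, and 4 of the 6 differences between the sexes held (Csf1r, Ctss, Cx3cr1 and P2ry12). In females P2ry12 then differed by -0.24 (edgeR adjusted p 0.0589), no smaller than the -0.21 without the covariate, Cx3cr1 by -0.15 (0.105), Tyrobp by -0.13 (0.392) and C1qb by -0.11 (0.246).

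The sets and the sexes at ZT6 differed most of all in Tyrobp. In calorimetry mice its lowest, median and highest libraries were 7.65, 11.3 and 18.7 CPM in males and 3.79, 5.73 and 8.41 CPM in females. In running-wheel mice they were 4.72, 5.65 and 7.31 CPM in males and 2.28, 3.98 and 4.90 CPM in females. Every calorimetry male library thus lay above every running-wheel male library. The log2 difference of calorimetry from running wheel was 0.81 ± 0.04 and that of males from females 0.75 ± 0.04 (edgeR adjusted p 3.3e-37 and 2.51e-34). With the length slope as a covariate they were 0.41 and 0.44, both still called. The slope averaged -0.071 ± 0.029 in calorimetry males and -0.008 ± 0.021 in calorimetry females (SD, n = 31 and 32). In running-wheel males and females it averaged 0.008 ± 0.018 and 0.069 ± 0.015 (n = 31 and 32). This order is the reverse of that of the Tyrobp medians. The part of RNA quality in these differences was not tested beyond that covariate.

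Against the running-wheel set, calorimetry mice had 6 of the 9 genes higher and 2, Csf1r and Tmem119, lower, beside 62.2% of all genes called. P2ry12 differed by 0.27 ± 0.04, Ctss by 0.22 ± 0.03, C1qa by 0.20 ± 0.04, Csf1r by -0.13 ± 0.02 and Tmem119 by -0.07 ± 0.03, and Cx3cr1 did not pass at -0.02 (edgeR adjusted p 0.647). With the length slope as a covariate the differences of C1qa, C1qb and C1qc changed sign, to -0.20, -0.09 and -0.21. Ctss then differed by 0.07 and was not called (edgeR adjusted p 0.345), Cx3cr1 was called at -0.20 (0.0118), and Csf1r and Tmem119 differed by -0.30 and -0.24. The directions of the C1q chains and the calls on Ctss and Cx3cr1 between the sets therefore depend on that correction.

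Between the sexes at ZT6, males had 5 genes higher (Tyrobp, the 3 chains of C1q and Ctss) and 2 lower (Cx3cr1 and Csf1r), beside 58.1% of all genes called. Sex cannot be told apart here from the prefix of the library names. C1qa differed by 0.23, C1qb by 0.20, C1qc by 0.19, Ctss by 0.19, Cx3cr1 by -0.12 and Csf1r by -0.08. With the length slope as a covariate 3 were called, Tyrobp at 0.44, Cx3cr1 at -0.26 and Csf1r at -0.22. In the running-wheel set alone 4 were called, Tyrobp at 0.55, Ctss at 0.14, Cx3cr1 at -0.18 and Csf1r at -0.11, beside 33.8% of all genes. In the calorimetry set alone 6 were called higher in males and 0 lower, beside 63.1% of all genes called, with Tmem119 among them at 0.21, while Cx3cr1 and Csf1r both differed by -0.05 (edgeR adjusted p 0.223 and 0.163). Without replicate 3 of every group the calls on Cx3cr1 and Csf1r over both sets were lost (0.0565 and 0.141). The male minus female difference was higher in the calorimetry set than in the running-wheel set for 6 genes, Tyrobp by 0.39, C1qa by 0.33, Tmem119 by 0.30, C1qb by 0.28, C1qc by 0.24 and Cx3cr1 by 0.12 (edgeR adjusted p 0.0498), beside 51.8% of all genes called. Cx3cr1 was not called here by DESeq2 (0.0554), with DESeq2-type size factors (0.0553), with no filter (0.0520), with the replicate block (0.0548) or with the length slope (0.0507).

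**Figure D4:**
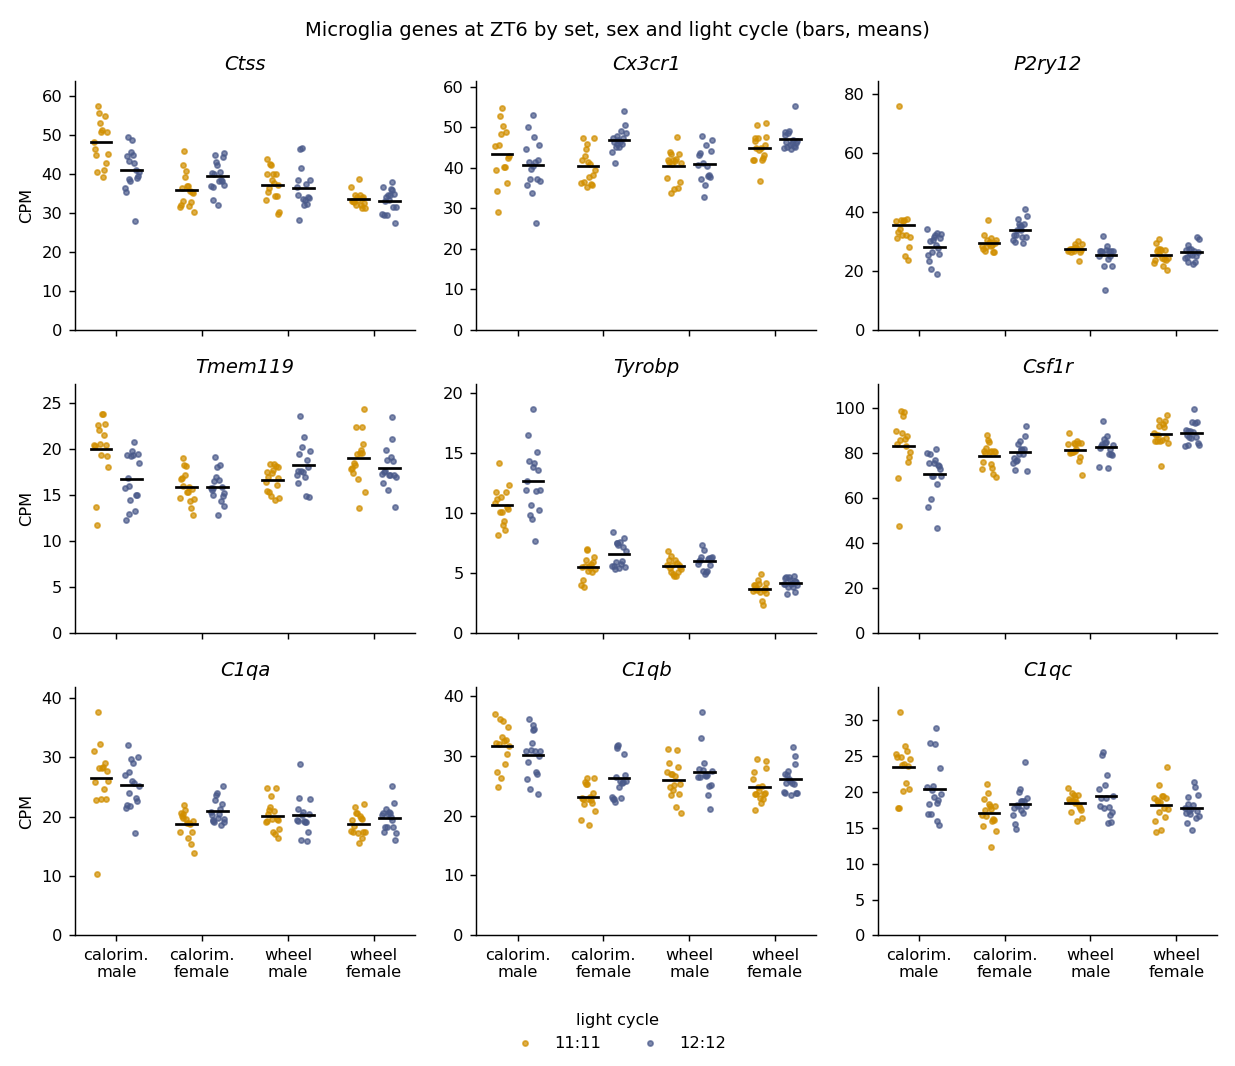
CPM of each of the 9 genes (y axes) in the ZT6 libraries by set and sex, with 11:11 beside 12:12 (x axes). Points are libraries and bars are means; the calorimetry males stand highest for Tyrobp, at 7.65 to 18.7 CPM, against 4.72 to 7.31 CPM in running-wheel males.

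In the atlas 1 of the 9 genes differed between the sexes, whose libraries also differed in name prefix. Csf1r was called, at 65.5 ± 4.09 CPM in males, against 68.3 ± 4.70 CPM in females (SD, n = 46 each; log2 difference -0.06 ± 0.02, edgeR adjusted p 0.00508), beside 41.1% of all genes called. Tyrobp averaged 5.60 ± 0.856 CPM in males, against 5.50 ± 0.836 CPM in females, a log2 difference of 0.03. Csf1r was thus called lower in males in both parts of the study, at ZT6 in the running-wheel set and not in the calorimetry set. The large difference in Tyrobp was seen in the calorimetry and running-wheel sets and not in the atlas, which also holds ZT6 libraries. The 2 parts were not tested against each other. Il34, the other ligand of CSF1R, was lower in atlas males at -0.19 ± 0.02, and so was Fcrls at -0.18 ± 0.04 (edgeR adjusted p 3.89e-11 and 1.62e-05).

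Blood cell markers differed between these groups too. The sum of the 8 measured ones had a lowest, median and highest library of 110.4, 201.0 and 378.3 CPM in calorimetry males and 44.8, 86.0 and 168.8 CPM in calorimetry females, and of 63.8, 83.6 and 174.8 CPM in running-wheel males and 39.8, 64.1 and 100.7 CPM in running-wheel females. Border macrophage markers summed to medians of 28.3, 28.1, 30.9 and 31.1 CPM in the same 4 groups. The part of blood cells in the differences between sets and sexes was not tested.

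Within groups, the 9 genes varied together from library to library, all but P2ry12. After group means were taken off, the Pearson correlation of log2 CPM over the 36 pairs of genes had a median of 0.39 at ZT6 (63 calorimetry and 63 running-wheel libraries, -0.07 to 0.67) and of 0.26 in the atlas (92 libraries, -0.14 to 0.54). The tightest pairs at ZT6 were Csf1r with C1qa at 0.67, Cx3cr1 with Csf1r at 0.65 and Tmem119 with Csf1r at 0.64. In the atlas they were C1qa with C1qb at 0.54 and Ctss with C1qb at 0.52. P2ry12 lay between -0.07 and 0.28 with the others at ZT6 and between -0.14 and 0.26 in the atlas. The ZT6 values include the calorimetry male HET/TG library rich in mitochondrial RNA, with P2ry12 at 75.8 CPM. The part of that library in the ZT6 correlations was not tested. The points share library, depth and RNA quality, and at ZT6 the genes also correlated with the library's length slope, from -0.51 for C1qa to 0.09 for P2ry12. These values are descriptions.

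**Figure D5:**
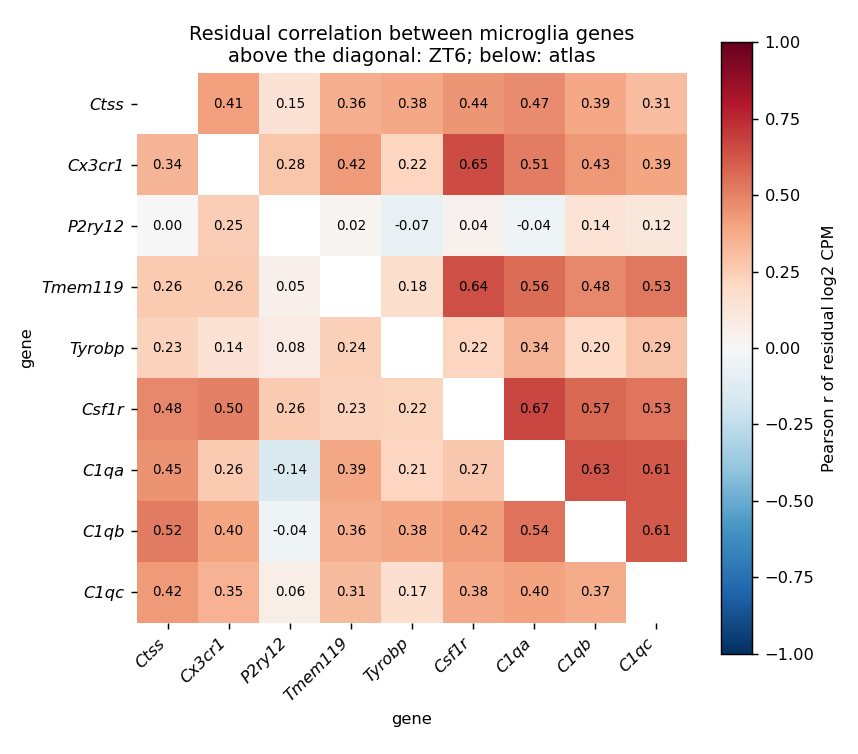
Pearson correlation of log2 CPM between the 9 genes after group means were taken off, with the ZT6 libraries above the diagonal (n = 63 in each set) and the atlas libraries below it (n = 92); both axes list the genes. Most pairs are positive, and P2ry12 stands out with values between -0.14 and 0.28.

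The genes whose levels within groups followed the mean of the 9 most closely at ZT6, among 13039 ranked, were Gnai2 at a correlation of 0.74, Mlc1, Plpp3, Clu, Cst3 and Apoe at 0.71, Gpr37l1 at 0.70, Pcdhgc3 at 0.68, Slc38a3 at 0.67 and Bcan at 0.66 (63 libraries of each set). Several of them, such as Mlc1, Clu and Gpr37l1, are known from astrocytes, and Cst3 encodes cystatin C, an inhibitor of cathepsins that microglia make in quantity. In the atlas, among 13111 ranked, they included Ccdc85c at 0.65, Rasl10b at 0.62, Ppp1r9b at 0.60, Rpsa at 0.58, Rplp1 at 0.56, Rplp0 at 0.55, Tmcc2 and Rpl41 at 0.54 and Pabpc1 at 0.53 (92 libraries). The 2 lists share no gene.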

How the data were processed

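The authors deposited raw counts per gene for 218 libraries, 63 in each set at ZT6 and 92 in the atlas, from ribosome-depleted, directional total RNA of the left prefrontal cortex, per the labels' protocols. The submitters' processing notes name Trim Galore, STAR, SAMtools, limma and mm10; neither the counting tool nor its strand setting is given in the sources used here. Of 219 labelled samples, 1 (running-wheel male on 12:12, WT/TG) had no column and was not analysed here. Of 55487 identifiers, 55227 matched GENCODE release 21.

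The members and lists were chosen with earlier results of these data known. Named genes are the 9 members, up to 2 genes of each list with the smallest p, list genes called between genotypes, and the 10 genes most correlated with the members' mean.

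Counts were filtered with filterByExpr, scaled by TMM and tested with edgeR 4.0.16 (quasi-likelihood, robust; R 4.3.3), adjusted by Benjamini-Hochberg over all genes tested, at 0.05. The ZT6 fit held a mean for each of 32 groups, with equal weights in each contrast; the atlas fit held sex and a 24 h cosine and sine. Library totals set the precision: counting error is largest for Tyrobp. The scripts were tested on simulated data. Alternatives were DESeq2 1.42.0, DESeq2-type size factors, no filter, a replicate block, the length slope as a covariate, subsets of libraries and leaving out replicates or single libraries; the sex-by-cycle contrasts within the sets and the single-library exclusions were added after the data were seen. No 2 libraries of a group held identical values. Results for 3 genes that the naming rule picks are not reported here.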

Additional observations from a re-analysis of the deposited data

Results flagged for a closer look

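The effect of 11:11 against 12:12 differed between males and females of the calorimetry set in 6 of the 9 microglia genes. This was edgeR's quasi-likelihood test of the difference itself, which called 3.91% of all genes. The contrast was chosen after the data were seen. The log2 effect in males minus that in females was 0.508 for P2ry12, 0.355 for Ctss, 0.298 for Cx3cr1, 0.298 for C1qc, 0.270 for Csf1r and 0.251 for C1qb. The same difference was not called for any of the 9 in the running-wheel set. The test of whether it differed between the sets called none of the 9 either.

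The difference between males and females differed between the calorimetry and the running-wheel set in 6 genes by the same kind of test, which called 51.8% of all genes. The log2 difference in calorimetry mice minus that in running-wheel mice was 0.394 for Tyrobp, 0.329 for C1qa, 0.296 for Tmem119, 0.279 for C1qb, 0.244 for C1qc and 0.123 for Cx3cr1, whose edgeR adjusted p of 0.0498 was 0.0554 by DESeq2. The set cannot be told apart from housing, lighting at collection and the series of library names. Sex cannot be told apart from the prefix of those names.

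A single library stood far from the others of its group in 4 of 225 combinations of gene and group, where chance gives about 1 in 20. In the atlas the groups were each sex at each time, and ZT18 and ZT21 again over both sexes. At ZT6 only the calorimetry male groups of 4 libraries were screened, and no calorimetry female or running-wheel group was. P2ry12 was at 75.8 CPM in a calorimetry male HET/TG library on 11:11, the one richest in mitochondrial RNA. In the atlas 1 library at ZT18 held 74.8 CPM of Csf1r, 1 at ZT18 held 15.6 CPM of C1qa and 1 female library at ZT21 held 35.03 CPM of Ctss.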

How the results depend on the processing

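The counts below are of the 9 microglia genes called. The share of all genes called under each alternative is not given beside them, so a change of count may not be particular to these genes. Between HET/WT and WT/WT mice Ctss was called, and the count was 0 in calorimetry mice alone, running-wheel mice alone, males alone or females alone, each with fewer samples, with the covariate for length slope and without the library that went against its label. It was 0 without any 1 of the replicates (0 to 0). Between HET/TG and HET/WT mice the count of 0 became 1 in females alone (C1qb) and 1 with no expression filter (Ctss). Between 11:11 and 12:12 the count of 1 became 2 in calorimetry mice alone, with the length slope and without the HET/TG library richest in mitochondrial RNA, 5 in females alone, and 0 in males alone and in running-wheel mice alone. The test of that effect between the sets rose to a count of 1, Csf1r, with the length slope and without that HET/TG library. Between males and females at ZT6 the count of 7 became 3 with the length slope and 4 in running-wheel mice alone, and in the atlas it ranged over 1 to 2 without 1 replicate. For the 24 h rhythm the count of 8 became 3 in females alone and 4 in males alone, and 6 to 8 without 1 replicate. In calorimetry females the count of 4 became 0 with the length slope, where P2ry12 kept its size at -0.24, and 0 to 4 without 1 replicate, and in calorimetry males the count of 6 became 2 to 6 without 1 replicate. For the difference between the sexes in that effect the count of 6 became 2 in the calorimetry set alone and 2 to 7 without 1 replicate. Where the construction of an alternative does not show the cause, the cause was not tested.

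Of the single values, 8 changed sign with a call behind them. Between the sets Tmem119 became 0.079 in males alone, C1qa -0.20, C1qb -0.092 and C1qc -0.21 with the length slope, and C1qb -0.055 and C1qc -0.030 in females alone. Between the sexes at ZT6 C1qa became -0.094 and C1qc -0.053 with the length slope. Of the other values of single genes, 1171 stayed on the same side of the threshold, 130 lost a call and 37 gained one. Direction was compared only where the gene was called in the main fit, and rhythm values have none.

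Libraries of the same replicate number were not alike across groups on average. The mean correlation of their deviations was 0.008 at ZT6 and 0.005 in the atlas. Single pairs ran from -0.29 to 0.32 at ZT6 and from -0.33 to 0.35 in the atlas. A mean cannot show whether some groups were paired. With the replicate block the counts were 1 for HET/WT against WT/WT, 8 for the rhythm, 4 and 6 for calorimetry females and males and 5 for the difference between the sexes, which lost C1qc. Depth limits Tyrobp most.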
